A study of Homo sapiens with 18 samples.

Results

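The N6-methyladenosine (m6A) writer and eraser genes are 10 genes taken by name: METTL3, METTL14, WTAP, VIRMA, ZC3H13, RBM15, RBM15B and CBLL1, which encode subunits of the m6A methyltransferase complex, and FTO and ALKBH5, which encode the demethylases. All 10 were found among the 8996 genes of the deposited table of mRNA kinetics. HEK293T cells, a human embryonic kidney line of wild-type genotype, received STM2457, an inhibitor of METTL3, or its solvent DMSO for 3 h, and then 100 µM 4-thiouridine (s4U) for 90 or 180 min, or no s4U. There were 3 samples for each of the 6 combinations, 9 with STM2457 and 9 with DMSO. For each gene and each treatment the table holds 1 fitted half-life and 1 fitted rate of synthesis. It has no value for a single sample, so no spread between replicates, read depth or p-value can be given, and each difference is one between 2 fitted values.

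The m6A mark is the most common internal modification of mRNA and marks many transcripts for decay. METTL3 is the catalytic subunit and pairs with METTL14, a related protein that holds the RNA; WTAP, VIRMA, ZC3H13, RBM15, RBM15B and CBLL1 dock this pair to its targets and to nuclear speckles. FTO and ALKBH5 are oxygenases that remove the methyl group. STM2457 acts on the METTL3 protein, so the METTL3 transcript is no check of inhibition.

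Of the 8 writer mRNAs, 6 were longer-lived in STM2457, 1 was shorter-lived and 1 lay within 1.5-fold, as did both eraser mRNAs. Of the 10 genes, 6 were longer-lived in STM2457 by more than 1.5-fold, a fixed rule of size: WTAP, RBM15, RBM15B, ZC3H13, METTL14 and CBLL1. Over all 8996 genes, 28.5% passed the same rule. VIRMA alone of the 10 was shorter-lived past 1.5-fold, against 24.9% of all genes, and METTL3, FTO and ALKBH5 lay within 1.5-fold. The median log2 half-life ratio, STM2457 over DMSO, was 1.03 over the 10 genes and -0.01 over all genes. That median rests in part on 3 genes at the ceiling of the table: over the 7 genes with both half-lives between 0.5 and 24 h it was 0.29, against -0.16 over the 7368 genes of the table in that range. Of the 7, 3 were longer-lived (METTL14, CBLL1 and ZC3H13), against 20.3% of those genes.

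In DMSO, 9 of the 10 mRNAs had half-lives under 6 h, against 52.9% of all genes, a limit set after the values were seen. It lies above the median of all genes, 5.61 h, and so takes in VIRMA and ALKBH5, which were at 5.81 and 5.70 h. Of the 9, 6 were longer-lived, against 34.1% of the 4760 genes under that limit, and 1 was shorter-lived, against 12.9%. Within the writer complex, half-lives covered 2.53 to 69.3 h in STM2457, a 27.4-fold range whose upper end is the ceiling, and 1.34 to 5.81 h in DMSO, a 4.33-fold range. With half-lives limited to 24 h, the STM2457 range was 9.48-fold. Hours are inferred, since the table names no time unit: its ceiling of 69.3 is ln 2 over a decay rate of 0.01.

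**Figure D1:**
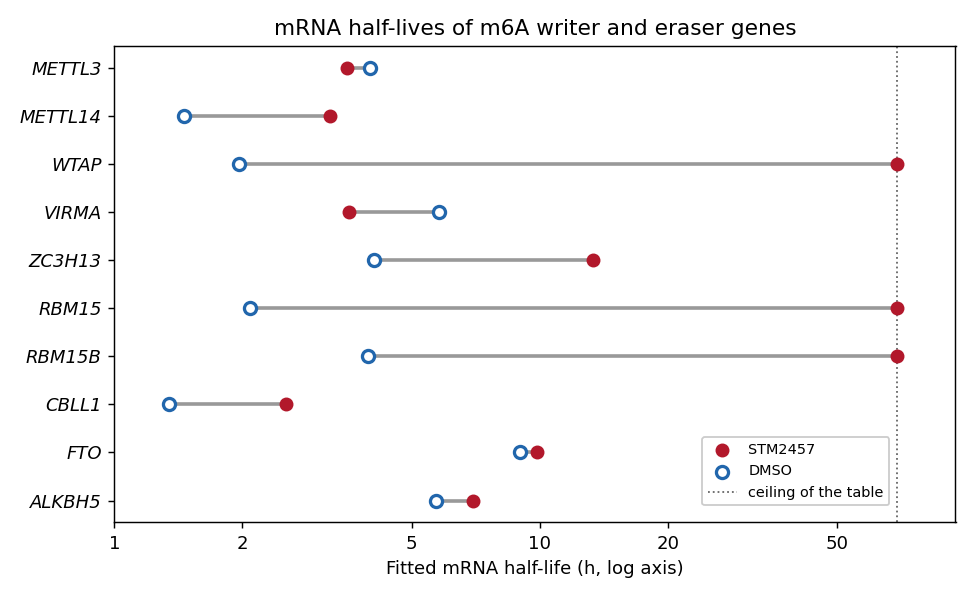
Fitted mRNA half-life in hours (log axis) of the 10 genes in STM2457 (filled) and DMSO (open), 1 value per gene and treatment; the dotted line is the ceiling of the table, 69.3 h. WTAP, RBM15 and RBM15B sit on the ceiling in STM2457, while METTL3, FTO and ALKBH5 have nearly the same half-life in both treatments.

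Of the catalytic pair, METTL14 passed 1.5-fold and METTL3 did not. METTL3 mRNA (ENSG00000165819.12, chromosome 14, 21498133 to 21511375, minus strand, GRCh38) lasted 3.51 h in STM2457 and 4.00 h in DMSO, as half-lives, a log2 ratio of -0.19, which placed it at percentile 42.7 of all genes. METTL14 mRNA (chromosome 4, 118685368 to 118715433) lasted 3.22 h in STM2457 and 1.46 h in DMSO, a ratio of 2.20-fold at percentile 82.4. The DMSO half-lives of the pair thus lay 2.74-fold apart and the STM2457 half-lives 1.09-fold apart. METTL14 was among the least stable mRNAs in DMSO, at percentile 5.75 of all genes, and at percentile 26.2 in STM2457.

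WTAP, the adaptor that brings the catalytic pair into nuclear speckles, had the largest ratio of the 10. Its mRNA (chromosome 6, 159725585 to 159756319) was at the ceiling of 69.3 h in STM2457, against 1.97 h in DMSO, a log2 ratio of 5.14 that ranks 35th of 8996 genes. At constant level, these half-lives mean that molecules made within 180 min would be 2.96% of WTAP mRNA in STM2457 and 65.3% in DMSO. The fitted rates do not imply a constant level in STM2457. Started from the DMSO level, they give 1.76-fold at 3 h and 2.50-fold at 6 h, so 2.96% would not hold over that time. The ceiling is a bound of the fit, so the size of the ratio is set by it. With every half-life above 24 h set to 24 h, the log2 ratio of WTAP was 3.61.

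RBM15 and RBM15B are paralogous RNA-binding proteins of the SPEN family that direct the complex to sites such as those on XIST RNA. Both mRNAs were at the ceiling of 69.3 h in STM2457. For RBM15 (chromosome 1, 110338506 to 110346681) the DMSO half-life was 2.08 h and the log2 ratio 5.06, rank 47. For RBM15B (chromosome 3, 51391268 to 51397908) it was 3.95 h and the log2 ratio 4.13, rank 202. The share made within 180 min would be 2.96% in STM2457 for both, against 63.2% in DMSO for RBM15 and 40.9% in DMSO for RBM15B. With half-lives limited to 24 h, the log2 ratios were 3.53 for RBM15 and 2.60 for RBM15B. In all, 3 of the 10 genes were at the ceiling in STM2457, against 10.9% of all genes, and among genes under 6 h in DMSO 3 of 9, against 5.34%. None of the 10 was at the ceiling in DMSO, against 2.55% of all genes.

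ZC3H13 and CBLL1 were longer-lived without reaching the ceiling. ZC3H13, a zinc-finger protein that keeps the complex in the nucleus, had an mRNA half-life of 13.3 h in STM2457 and 4.09 h in DMSO, 3.26-fold (chromosome 13, 45954465 to 46052759). CBLL1, also called HAKAI, a RING-finger protein, had 2.53 h in STM2457 and 1.34 h in DMSO, 1.89-fold (chromosome 7, 107743697 to 107761667). CBLL1 had the shortest half-life of the 10 in either treatment. It was longer-lived past 1.5-fold and not past 2-fold, a rule that 19.7% of all genes and 5 of the 10 passed.

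VIRMA, the large scaffold of the complex, went the other way. Its mRNA half-life was 3.56 h in STM2457 and 5.81 h in DMSO, so it was 1.63-fold shorter in STM2457, at percentile 20.2 of all genes. It was the most stable of the 8 writer mRNAs in DMSO. In STM2457 it outlasted METTL3, METTL14 and CBLL1, whose half-lives of 3.51, 3.22 and 2.53 h came close to its own, while the other 4 had half-lives of 13.3 h or more. The table has no values per library to set these neighbours against their spread.

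Both eraser mRNAs lay within 1.5-fold. FTO mRNA (chromosome 16, 53701692 to 54158512) had half-lives of 9.86 h in STM2457 and 9.0 h in DMSO, a log2 ratio of 0.13. ALKBH5 mRNA (chromosome 17, 18183078 to 18209954) had 6.95 h in STM2457 and 5.70 h in DMSO, a log2 ratio of 0.29. FTO was the most stable of the 10 mRNAs in DMSO, at percentile 70.0 of all genes, and ALKBH5 lay at percentile 50.8.

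Synthesis rates came from the same fits. The table does not name their unit, so they are compared within a gene. Of the 10 genes, 2 had a synthesis rate lower past 1.5-fold in STM2457, against 13.2% of all genes: METTL14, at 108.3 in STM2457 and 185.4 in DMSO (log2 ratio -0.78), and RBM15B, at 267.2 in STM2457 and 410.3 in DMSO (log2 ratio -0.62). None had a rate higher past 1.5-fold, against 12.6% of all genes. WTAP had a log2 synthesis ratio of -0.40, ALKBH5 -0.38, ZC3H13 -0.33 and RBM15 -0.14. CBLL1 had equal rates, 172.2 in STM2457 and 172.3 in DMSO. METTL3, VIRMA and FTO had log2 synthesis ratios of 0.11, 0.16 and 0.43. In FTO and ALKBH5 the log2 synthesis ratio was larger in size than the log2 half-life ratio. The median over the 10 genes was -0.24, and over all genes -0.06. Over the 7 genes with both half-lives between 0.5 and 24 h it was -0.00060, against -0.087 over all genes in that range.

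A longer half-life stood beside a lower synthesis rate, of any size, in 7 of the 10 genes and in 32.6% of all genes. These shares depend on how many genes were longer-lived at all. Among genes with a log2 half-life ratio above 0, the pairing held in 7 of 8 members and in 2936 of 4313 genes of the table. CBLL1 is among the 7 with a log2 synthesis ratio of -0.00060. Both values come from 1 fit of the same reads, and how far the fit ties them to each other was not tested.

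**Figure D2:**
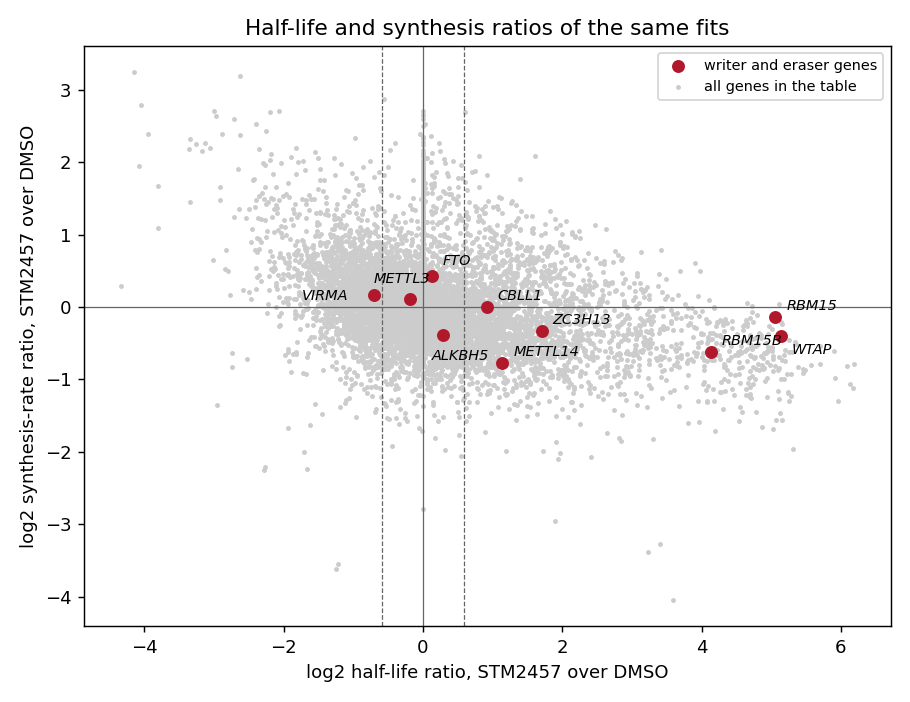
Log2 ratio of synthesis rates against log2 ratio of half-lives, STM2457 over DMSO, for the 10 genes (red, named) and all genes of the table (grey); dashed lines mark 1.5-fold in half-life. The 3 genes at the ceiling lie far to the right with log2 synthesis ratios of -0.14 to -0.62, and VIRMA alone lies left of the lower dashed line.

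The abundance implied by a fit is the synthesis rate over the decay rate. It is a quantity of the fit and not a measured RNA level. At steady state it was higher in STM2457 past 1.5-fold in 5 of the 10 genes, against 28.3% of all genes: RBM15, WTAP, RBM15B, ZC3H13 and CBLL1. The values were 30.2-fold for RBM15, 26.7-fold for WTAP and 11.4-fold for RBM15B. Each exceeds a bound, the level reached when 6 h of the fitted STM2457 synthesis, with no decay, is added to the DMSO level. The bound is 2.81-fold the DMSO level for RBM15, 2.60-fold for WTAP and 1.69-fold for RBM15B. None of the 10 was lower past 1.5-fold at steady state, against 24.7% of all genes. ZC3H13, at 2.59-fold, exceeds its bound of 1.81-fold too, and 23.4% of all genes exceed theirs.

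Followed for 6 h, the 3 h of compound and the longest labelling, the fitted rates imply smaller differences. They give 2.7-fold the DMSO level for RBM15, 2.50-fold for WTAP, 1.71-fold for CBLL1 and 1.61-fold for RBM15B, so 4 of the 10 genes passed 1.5-fold, against 8.47% of all genes. ZC3H13 would reach 1.43-fold, METTL14 1.21-fold and FTO 1.17-fold. For METTL14 the lower synthesis offsets most of the longer half-life, with 1.29-fold at steady state. METTL3 and ALKBH5 would be at 0.966-fold and 0.971-fold, and VIRMA at 0.785-fold. None of the 10 was lower past 1.5-fold, against 10.5% of all genes at 6 h.

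**Figure D3:**
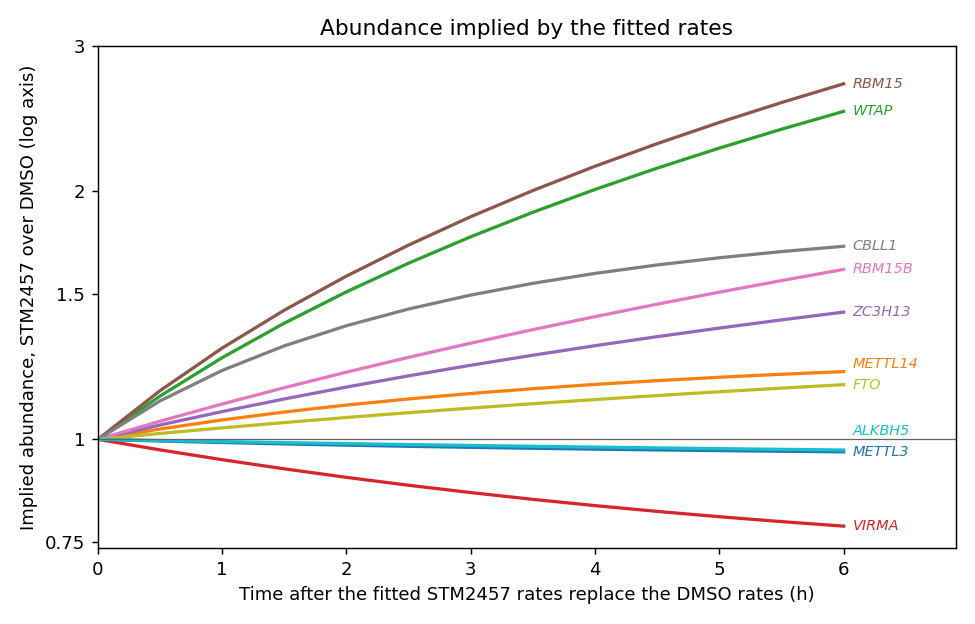
Abundance implied by the fitted rates, STM2457 over DMSO (log axis), for the 10 genes over 6 h after the STM2457 rates replace the DMSO rates; lines are calculated from 1 pair of rates per gene and treatment. RBM15 and WTAP end above 2-fold, while METTL3 and ALKBH5 stay near 1 and VIRMA ends at 0.785-fold.

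The series title concerns m6A in coding regions, so the coding sequences of the 10 genes were read for the motif in which m6A occurs, named DRACH: A, G or T, then A or G, then AC, then A, C or T. Motifs were counted on the sense strand, overlaps included, in the GENCODE release 29 transcript with the longest coding sequence. They were called far when their A lay at least 100 nt from the nearest exon junction, because the proteins deposited at junctions keep m6A away from nearby bases. A motif is a description of sequence and not a measured m6A site.

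Far coding motifs were many in 4 of the 10 genes: ZC3H13 had 57, RBM15 52, VIRMA 51 and RBM15B 50. At least 50 occur in 3.30% of the 8527 genes with a coding transcript, whose median is 3. CBLL1 had 19, WTAP 15 and FTO 10, and at least 10 occur in 25.5% of genes. ALKBH5 had 8, METTL3 7 and METTL14 4. RBM15B carries its whole coding sequence of 2670 nt in 1 exon, and RBM15 has 97.7% of its 2931 coding nt in 1 exon of 3. METTL3 and METTL14 have 11 coding exons each, the longest of 405 and 302 nt. METTL14 has a 3′ UTR of 5134 nt with 107 far motifs, whereas that of METTL3 has 123 nt and 2, with the stop codon included in both lengths. In the other genes, far motifs of the 3′ UTR numbered 77 in RBM15B, 54 in ZC3H13, 44 in CBLL1 and 28 in VIRMA. FTO had 27, ALKBH5 16, WTAP 11 and RBM15 2. The median length over the 8527 genes was 1029 nt, and the share of genes with such motif counts was not computed.

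Below are the 150 coding bases of highest far-motif density in RBM15, RBM15B and WTAP, the genes at the ceiling, in ZC3H13, which has the most far motifs, and in METTL3 for comparison. Far motifs are in capitals, the rest in lower case, 5′ to 3′ on the sense strand (GENCODE release 29, GRCh38).
RBM15: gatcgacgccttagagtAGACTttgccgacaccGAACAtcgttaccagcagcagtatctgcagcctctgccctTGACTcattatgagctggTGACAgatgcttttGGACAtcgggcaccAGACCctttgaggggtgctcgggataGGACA
RBM15B: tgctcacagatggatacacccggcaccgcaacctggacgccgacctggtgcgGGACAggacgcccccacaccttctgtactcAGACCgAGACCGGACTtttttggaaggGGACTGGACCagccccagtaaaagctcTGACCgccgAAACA
WTAP: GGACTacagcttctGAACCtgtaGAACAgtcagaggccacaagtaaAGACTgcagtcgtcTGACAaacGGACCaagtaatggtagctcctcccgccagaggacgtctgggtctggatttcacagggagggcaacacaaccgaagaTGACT
ZC3H13: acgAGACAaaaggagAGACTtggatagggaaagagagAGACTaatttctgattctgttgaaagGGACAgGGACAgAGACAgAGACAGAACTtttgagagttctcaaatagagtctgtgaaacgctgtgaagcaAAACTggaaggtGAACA
METTL3: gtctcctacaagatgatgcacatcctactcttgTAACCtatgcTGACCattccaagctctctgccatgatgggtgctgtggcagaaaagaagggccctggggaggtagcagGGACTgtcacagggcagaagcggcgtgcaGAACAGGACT
The RBM15 stretch lies in exon 1 of 3 at chr1:110340960-110341109 (plus strand) with 7 far motifs, and the RBM15B stretch in its only exon at chr3:51392934-51393083 (plus strand) with 8. The WTAP stretch lies in exon 8 of 8 at chr6:159755178-159755327 (plus strand) with 7. The ZC3H13 stretch lies in exon 15 of 19 at chr13:45967632-45967781 (minus strand) with 10, and the METTL3 stretch in exon 3 of 11 at chr14:21503346-21503495 (minus strand) with 5. Over the 7814 genes with a coding exon of that length, 12.6% have a stretch with at least 7, 1.22% one with at least 10, and 28.8% one with at least 5.

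**Figure D4:**
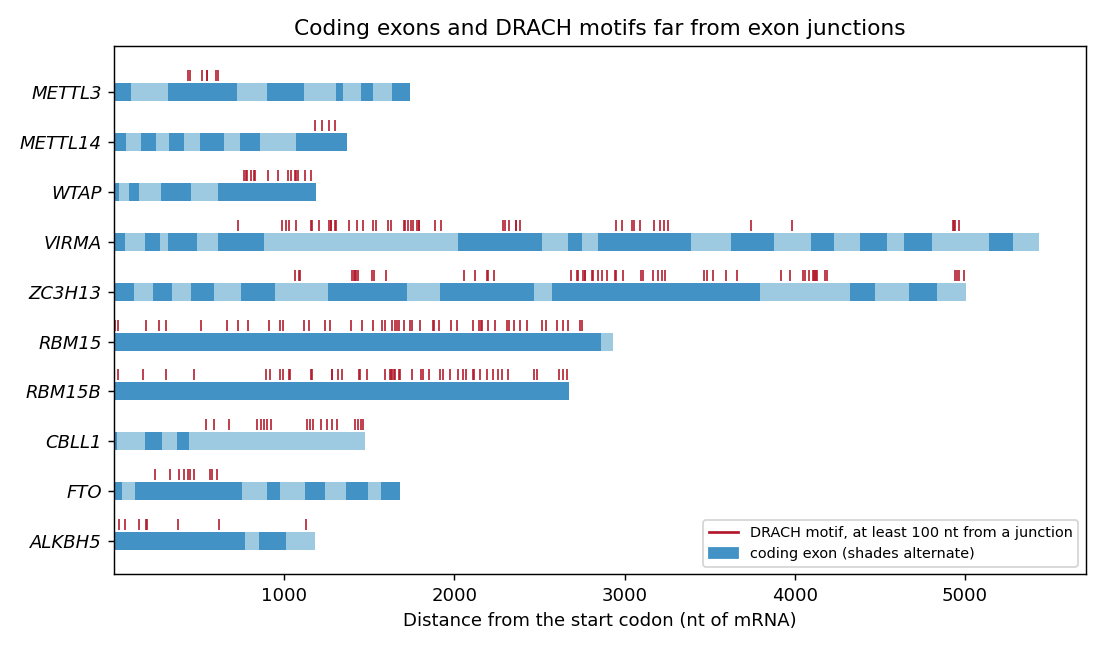
Coding exons (shades of blue alternate) and far DRACH motifs (red ticks) of the 10 genes by distance from the start codon in nt of mRNA. In RBM15 and RBM15B the ticks run along 1 long exon, in METTL3 all 7 fall in 1 exon of 405 nt, and in WTAP all 15 fall in the last exon.

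Set beside the half-lives, most members with 10 or more far coding motifs were longer-lived, and VIRMA and FTO were not. Of the 7 genes with 10 or more far coding motifs, 5 were longer-lived, 1 was shorter-lived (VIRMA) and 1 lay within 1.5-fold (FTO). Over all genes of that class, 45.6% were longer-lived and 10.6% shorter-lived. Of the 3 genes with fewer, METTL14 was longer-lived, against 22.5% of all such genes, and none was shorter-lived, against 29.8%. These classes were set after the values were seen. Among the 4 genes with at least 40 motifs, RBM15, RBM15B and ZC3H13 were longer-lived and VIRMA shorter-lived, where 50% of all such genes were longer-lived and 7.88% shorter-lived. By exon length, 4 of the 5 genes with a coding exon of at least 1000 nt were longer-lived, against 51.3% of all such genes. VIRMA, with one of 1141 nt, was shorter-lived, against 8.54%. Of the 5 genes without such an exon, WTAP and METTL14 were longer-lived, against 25.2% of all such genes, and none was shorter-lived, against 27.1%. WTAP, with the largest ratio, whose size the ceiling sets, has fewer far motifs than VIRMA and no coding exon over 581 nt. These counts were not scaled to coding length, which is 1188 nt in WTAP and 5436 nt in VIRMA. Per 1000 coding nt, far motifs numbered 18.7 in RBM15B, 17.7 in RBM15, 12.9 in CBLL1, 12.6 in WTAP and 11.4 in ZC3H13. VIRMA had 9.38, ALKBH5 6.77, FTO 5.96, METTL3 4.02 and METTL14 2.92, where the median of the 8527 genes was 2.19.

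**Figure D5:**
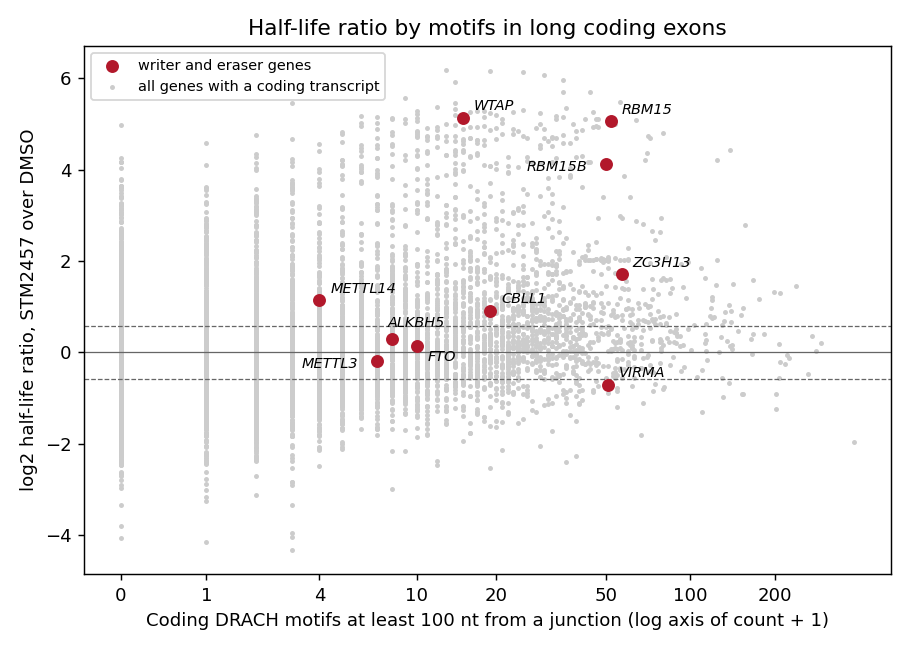
Log2 half-life ratio, STM2457 over DMSO, against the number of far coding DRACH motifs (log axis of the count plus 1) for the 10 genes (red, named) and all genes with a coding transcript (grey); dashed lines mark 1.5-fold. RBM15, RBM15B, ZC3H13 and VIRMA have 50 to 57 motifs and log2 ratios of 5.06, 4.13, 1.71 and -0.71.

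The libraries read the 3′ ends of polyadenylated RNA, and the table has 1 row per gene, whatever its ends. GENCODE lists transcript ends in 5 groups more than 500 nt apart for WTAP, 5 for METTL14 and ZC3H13, 6 for VIRMA and CBLL1, 8 for METTL3, 13 for FTO, 2 for RBM15 and ALKBH5 and 1 for RBM15B. These groups take in every annotated transcript, coding or not, while METTL3 and VIRMA have 2 coding transcripts each. Which of the ends are polyadenylated or used in these cells was not tested. The table has 1 half-life per gene and treatment, whichever ends were read. No gene on the same strand overlaps an exon of any of the 10. On the opposite strand, WTAP overlaps SOD2, METTL3 overlaps TOX4, RBM15 overlaps RBM15-AS1 and RBM15B overlaps DCAF1. CBLL1 overlaps AC002467.1, ALKBH5 overlaps AC087164.1 and FTO overlaps AC007347.2, also on the opposite strand. The kit keeps strand, but its use in counting was not given in the sources used here. An overlap of any exon was taken, and whether it lies at a 3′ end that the libraries read was not tested. Whether reads of these partners entered the values of the named genes is thus unknown.

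Other genes of the m6A pathway were counted by lists. The share of all genes to set beside each list is 28.5% longer-lived and 24.9% shorter-lived past 1.5-fold. Of the YTH readers, which bind m6A, 4 of 5 were in the table, and 3 were longer-lived and 1 was shorter-lived. YTHDF2, which recruits the deadenylase to m6A-marked mRNA, and YTHDF3 were at the ceiling in STM2457, with 1.33 and 2.55 h in DMSO. YTHDF1 had 6.92 h in STM2457 and 1.95 h in DMSO, and YTHDC2 had 3.14 h in STM2457 and 5.05 h in DMSO. SPEN, the founding member of the family of RBM15, had 4.18 h in STM2457 and 1.68 h in DMSO, 2.48-fold.

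Of 9 other m6A-linked binding proteins, 8 were in the table, with 2 longer-lived, 1 shorter-lived and 5 within 1.5-fold. HNRNPC was the highest, at the ceiling in STM2457 and 20.9 h in DMSO, and FMR1, the fragile X protein, the lowest, at 6.43 h in STM2457 and 10.9 h in DMSO. Of 6 genes for methyltransferases of other RNA sites, 4 were in the table. METTL5, the enzyme of 18S ribosomal RNA, had 3.30 h in STM2457 and 10.0 h in DMSO, and its stabilising partner TRMT112 was at the ceiling in STM2457 and had 28.5 h in DMSO. PCIF1, which methylates the cap-adjacent adenosine, had 3.20 h in STM2457 and 7.11 h in DMSO. METTL16, the enzyme of U6 snRNA and MAT2A mRNA, had 4.38 h in STM2457 and 3.27 h in DMSO.

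The cycle that supplies the methyl donor S-adenosylmethionine had 6 of 7 genes in the table, of which 0 were longer-lived and 1 was shorter-lived. MAT2A, which makes the donor, had 1.88 h in STM2457 and 1.95 h in DMSO. MAT2B, its regulatory subunit, had 2.14 h in STM2457 and 3.99 h in DMSO, the lowest ratio of the list. AHCY, at the ceiling in STM2457 and 59.0 h in DMSO, had the highest log2 ratio, 0.23, which the ceiling limits, and the remaining genes AHCYL1, MTR and MTRR had -0.53, -0.57 and -0.01.

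METTL3 was most like IDS, FKBP14 and MRRF over 4 log2 values, the half-life and synthesis rate in both treatments. Distances were 0.12, 0.17 and 0.21 among 7949 genes below the ceiling in both treatments. IDS had half-lives of 3.45 h in STM2457 and 4.15 h in DMSO. FKBP14 had 3.34 h in STM2457 and 3.96 h in DMSO, and MRRF 3.24 h in STM2457 and 3.77 h in DMSO. Of 7 genes fixed as HEK293T markers, NEFL, NEFM, VIM and KRT18 were in the table, and of 10 markers of other cell types, COL1A1 and CDX2; a gene not in a filtered table need not be absent from the cells.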

How the data were processed

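Per the labels' protocols, cells were lysed in TRIzol, RNA was alkylated with iodoacetamide, and the QuantSeq forward kit of Lexogen, which reads 3′ ends, gave the libraries; 1 library of the pool had a lower input and is not matched to a sample. STAR 2.7.8a, FastQC 0.11.9 and the build GRCh38.p12 are named in the submitters' processing notes. The kinetic model and its software, the annotation, the filter on genes and the libraries behind each fit were not given in the sources used here. Values deposited by the authors are 1 half-life and 1 rate of synthesis for each gene under each treatment, and log2 ratios of STM2457 over DMSO, which recomputation matched within 1.27e-14. Synthesis was 0 in STM2457 for 3 genes, which have no log2 ratio. The table gives no counts, so depth is unknown.

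Genes past 1.5-fold were counted beside the share of all genes past it, with no test. Half-lives within 1e-06 of the largest were taken as at the ceiling. The level at 6 h assumed that STM2457 rates replace DMSO rates at once. Of 8996 identifiers, 8982 matched GENCODE release 29 without version and 8527 gave a coding transcript; 1 of the 10 members had the same version. Members and lists were chosen with earlier results of these data known. The text names the 10 members, every gene of a list with at most 6 genes in the table, the ends of longer lists, and the 3 genes nearest to METTL3. Functions were tested on simulated data. Python 3.11.15, NumPy 2.4.6, pandas 2.3.3 and Matplotlib 3.10.9 were used.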

Additional observations from a re-analysis of the deposited data

How the results depend on the processing

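The count of 6 longer-lived genes stayed at 6 with the smaller size rule tried, with half-lives limited to 24 h and after centring on the median of all genes. It was 5 with a rule of 2-fold. It was 3 of 7 over the range of 0.5 to 24 h, which leaves out WTAP, RBM15 and RBM15B. The count of 1 shorter-lived gene was 0 with a rule of 2-fold. The median log2 half-life ratio of 1.03 was 1.76 as a mean, 0.29 within 0.5 to 24 h and 1.03 after centring. The median log2 synthesis ratio of -0.24 was -0.19 as a mean, -0.00060 within that range and -0.18 after centring. The count of 5 genes with a higher implied abundance was 4 at 6 h. No half-life ratio of the 10 genes changed sign with the 24 h limit or centring. Far coding motifs at 200 nt from a junction were 0 in METTL3, 11 in WTAP, 28 in VIRMA, 29 in ZC3H13, 49 in RBM15 and 50 in RBM15B. As GGAC they numbered 27 in RBM15B, 20 in RBM15, 13 in ZC3H13, 9 in ALKBH5 and 8 in VIRMA. WTAP had 4, CBLL1 and FTO 3 each, METTL3 2 and METTL14 1. Which genes count as rich in motifs thus depends on the motif used. In 6 genes, among them WTAP, ZC3H13 and CBLL1, at least 1 coding transcript has 0. Leaving out a replicate could not be run, and no paired analysis was possible because the table has no value per sample.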

Other observations

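Other AlkB-family dioxygenases, relatives of the erasers that act on other substrates, had 6 of 7 genes in the table, with 2 longer-lived, 2 shorter-lived and 2 within 1.5-fold. ALKBH8, which modifies the wobble base of tRNA, was at the ceiling in STM2457 and lasted 3.23 h in DMSO, as a half-life. ALKBH4 had 2.76 h in STM2457 and 1.53 h in DMSO. ALKBH6 had 4.21 h in STM2457 and 13.1 h in DMSO, and ALKBH3, which repairs alkylated bases, had 8.27 h in STM2457 and 13.5 h in DMSO. ALKBH2 and ALKBH7 had log2 ratios of 0.07 and 0.25.

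Of 12 symbols listed for the decay machinery of m6A-bound mRNA, with RIDA under both its present and its older name, 9 were in the table, with 2 longer-lived, 2 shorter-lived and 5 within 1.5-fold. POP1, a subunit of the RNase P and MRP complexes, had the highest ratio, with 8.70 h in STM2457 and 2.43 h in DMSO. CNOT1, the scaffold of the deadenylase complex, had the lowest, with 4.74 h in STM2457 and 7.72 h in DMSO. Of 3 partners of the writer in choosing mRNA 3′ ends, NUDT21 had 6.51 h in STM2457 and 12.3 h in DMSO, CPSF6 4.20 h in STM2457 and 5.10 h in DMSO, and CPSF7 3.44 h in STM2457 and 2.97 h in DMSO.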
